A study of Rattus norvegicus with 26 samples.

Results

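Genes that write, keep or remove DNA methylation and genes of Polycomb repressive complex 2 (PRC2) were followed while 2 clones of rat multipotent adult progenitor cells (rMAPCs) were driven towards smooth muscle, and in primary smooth muscle cells (SMCs). The list held 10 genes: *Dnmt1*, *Dnmt3a*, *Dnmt3b*, *Dnmt3l*, *Uhrf1* and *Tet1* of the DNA methylation machinery, and *Ezh2*, *Eed*, *Suz12* and *Jarid2* of PRC2. A member was any gene probe whose gene name in the scanner files matched, and each gene was read from its brightest probe. Of the 10 genes, 8 had a probe, against 35287 gene names on the array. *Suz12* and *Jarid2* had no probe under those names and were left out. All 8 measured genes passed the filter on dim probes, which kept a probe if some group had all its arrays well above background.

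RNA was hybridised to single-colour Agilent Whole Rat Genome arrays, 26 in all. Clone Cl19 came from bone marrow of 3-week-old female Fischer rats and clone 3c3 from that of female Fischer rats at embryonic day 18, and both expressed Oct4. Each clone was sampled before treatment (d0) and on d2, d4 and d6 of culture with TGFβ1 and PDGF-BB, with 3 arrays for each clone and day, so every group other than d0 carried both factors and no group was cultured without them for the same time. By the study's methods the treated cells were replated in serum-free medium, while the d0 culture is described there only by citation. Factors, medium, replating and time in culture cannot be told apart in differences from d0. The control, called Prim, was commercial primary SMC RNA on 2 arrays, described in its label as rat aortic RNA, with no strain, sex or age. The study's text calls it RNA of cultured aortic SMCs, while the label alone leaves tissue RNA possible, so differences from Prim are differences from this RNA. Each line was a single clone, so clone, donor age and scan day cannot be told apart. The study's methods call the 3 arrays of a clone and day biological replicates, while the labels do not say whether they came from separate cultures, and the p-values measure the spread between these arrays.

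DNA methyltransferases place methyl groups on cytosine in CG dinucleotides. *Dnmt3a* and *Dnmt3b* encode the enzymes that set new marks, *Dnmt3l* a partner without activity of its own that stimulates them, and *Dnmt1* the enzyme that copies marks after replication with the help of *Uhrf1*, which binds hemimethylated DNA. *Tet1* encodes an enzyme that oxidises the methyl group, a step of its removal. PRC2 places methyl groups on lysine 27 of histone H3: *Ezh2* is its enzyme, *Eed* reads the mark, *Suz12* holds the complex together and *Jarid2* helps to bring it to DNA. In stem cells both systems keep lineage genes silent.

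The sequences that carried the measurements are given for *Dnmt3b* and *Tet1*, which rose at d2, for *Dnmt3l*, which differed between the clones at d0, and for *Ezh2*, whose 2 probes were unlike in brightness. Each probe held 60 bases, of which the first 30 are printed, 5′ to 3′ and in lower case. In the rat build rn4 used by the scanner files, the *Dnmt3b* probe lay at chr3:144069022-144069081 on the plus strand, the *Dnmt3l* probe at chr20:10959229-10959288 on the minus strand and the *Tet1* probe at chr20:25132172-25132231 on the minus strand. The brighter *Ezh2* probe lay at chr4:75713707-75713766 on the minus strand. The other spanned chr4:75732743-75755539, a stretch of 22797 bases for a 60-base probe, so it joins separate blocks of the genome. The files do not say whether a probe lies in coding sequence or in a UTR.
Dnmt3b: accttttgctctgattacaggtgctatttt
Dnmt3l: gagagagtacttcaagtatttttctcagaa
Tet1: cccgaggatggtaacatccctcaacttgat
Ezh2, brighter probe: tggggcatctttatcaaagatccagtacag
Ezh2, dimmer probe: catcatgacttctgtggaagatgaaactgt

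Windows of 250 bases before a transcript start were held for 9 of the 10 genes in the RefSeq promoter table (build GRCr8), and none for *Dnmt3b*. *Tet1* and *Uhrf1* had 3 starts each. The windows of *Dnmt3l* and *Eed* are printed as far as they lie outside every annotated gene, because *Dnmt3l* differed most between the cell sources and *Eed* fell with the narrowest error. Capitals mark CG dinucleotides, the substrate of the enzymes described here. The *Dnmt3l* window (chr20:10628990-10629239, minus strand) held 8 of them and the *Eed* stretch (chr1:153307538-153307750, minus strand, 213 bases) held 7, against a median of 5 over all 33469 windows of 250 bases. The last capital of the *Eed* stretch is the C of a CG whose G lies past the printed end, and it is not counted.
Dnmt3l: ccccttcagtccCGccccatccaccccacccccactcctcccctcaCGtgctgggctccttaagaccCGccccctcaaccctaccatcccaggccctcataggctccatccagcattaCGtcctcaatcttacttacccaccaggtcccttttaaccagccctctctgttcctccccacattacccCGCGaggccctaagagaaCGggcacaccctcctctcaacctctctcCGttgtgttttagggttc
Eed: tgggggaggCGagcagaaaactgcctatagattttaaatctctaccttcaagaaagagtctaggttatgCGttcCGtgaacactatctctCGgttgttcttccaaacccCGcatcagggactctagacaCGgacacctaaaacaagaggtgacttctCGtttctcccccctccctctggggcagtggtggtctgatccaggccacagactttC
Both strands of every window were searched for 4 words of the kind bound by E2F factors, which switch on genes of DNA replication: TTTCCCGC, TTTGGCGC, TTTCGCGC and TTTGCCGC. At least 1 of them stood in 1.73% of all windows. Among the members they stood before the third start of *Uhrf1*, at 2 places, and before *Suz12*, at 1. That *Uhrf1* window lies inside the annotated gene, so only 28 bases around each word are printed (plus strand, the word in capitals, the first word read on the opposite strand), from chr9:1222983-1223010 and chr9:1223077-1223104. A match in letters is a description and not a measured binding site.
Uhrf1, first word: cgctaagttcGCGGGAAActcgcgcggt
Uhrf1, second word: ccgagtcgggTTTCGCGCgccctggcgt

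Levels are given as log2 of the quantile-normalised signal, and a difference of 1 on this scale is a doubling. Changes were tested with limma in 1 fit over all 26 arrays and 24442 probes, with Benjamini-Hochberg adjustment over all of them and a threshold of 0.05, and "rose" and "fell" are used only past it. The median of all probes moved by -0.20 in Cl19 and -0.21 in 3c3 from d0 to d6. Between 43.2% and 61.4% of features were well above background on an array. The slide of 3c3 replicate 3 had the brightest negative controls (means of 62.6 to 82.0, against 44.9 to 50 elsewhere). The labelled cell types were checked against marker lists. All 5 measured smooth muscle markers rose by d6 in both clones and were well above background in Prim, and *Myh11* had no probe under that name. In Prim 3 of 4 leukocyte markers were well above background on both arrays, *Ptprc* (5.11) and *Cd74* (9.50) among them and *Cd3e* not, and the list summed to 9.59 to 9.64 (log2) against 5.67 to 7.54 in the clones. All 4 fibroblast markers were too, with a sum of 16.00 to 16.07 against 10.59 to 13.90, and none of 4 endothelial markers was on both arrays. By d6, 3 fibroblast markers rose and 1 fell in Cl19, and 1 rose and 1 fell in 3c3. Their sum was 12.28 to 12.42 at d0 and 13.23 to 13.90 at d6 in Cl19, and 12.15 to 12.35 and 10.59 to 11.73 in 3c3. Of 6 progenitor markers, 5 fell and 1 rose in Cl19, and 4 fell and 1 rose in 3c3. In Prim 3 of these 6 were well above background on both arrays. Each slide carried the 4 days of 1 replicate of 1 clone in the same order, so day and position on the slide cannot be told apart, and differences within a slide are given beside the tests.

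One library stood apart from its label. The array labelled Cl19 d2 replicate 1 differed from the 3c3 d2 arrays by 0.38 to 0.54 (root mean square over probes, log2) and from the other Cl19 d2 arrays by 0.88 and 0.92. Some members followed this and others did not. *Dnmt3l* read 14.73 on it, against 13.52 and 13.43 on the other Cl19 d2 arrays and 14.38 to 15.09 in 3c3 at d2. *Dnmt3a* read 7.46 against 6.38 and 6.40, with 7.33 to 7.58 in 3c3. *Dnmt3b* read 12.42 against 13.78 and 13.95, with 12.42 to 12.74 in 3c3. On these 3 genes the array lay within or next to the range of the other clone. *Eed* did too, at 10.61 against 10.32 and 10.38, with 10.50 to 10.67 in 3c3. *Dnmt1* read 10.89, above 10.54 and 10.78 and within 3c3 (10.70 to 10.97). *Ezh2* read 7.52, within the range of both (7.49 and 8.59, and 6.94 to 8.27 in 3c3). The smooth muscle markers summed to 12.86 (log2) on this array, against 14.41 and 14.33 on the other Cl19 d2 arrays and 12.49 to 13.00 in 3c3. *Tet1* read 5.02, between the other Cl19 d2 arrays (4.78 and 5.19) and above 3c3 (4.72 to 4.78), and *Uhrf1* read 8.31, between 8.24 and 8.51 and above 3c3 (7.97 to 8.13), as the label has it. The main values that rest on Cl19 at d2 are given with and without it.

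**Figure D1:**
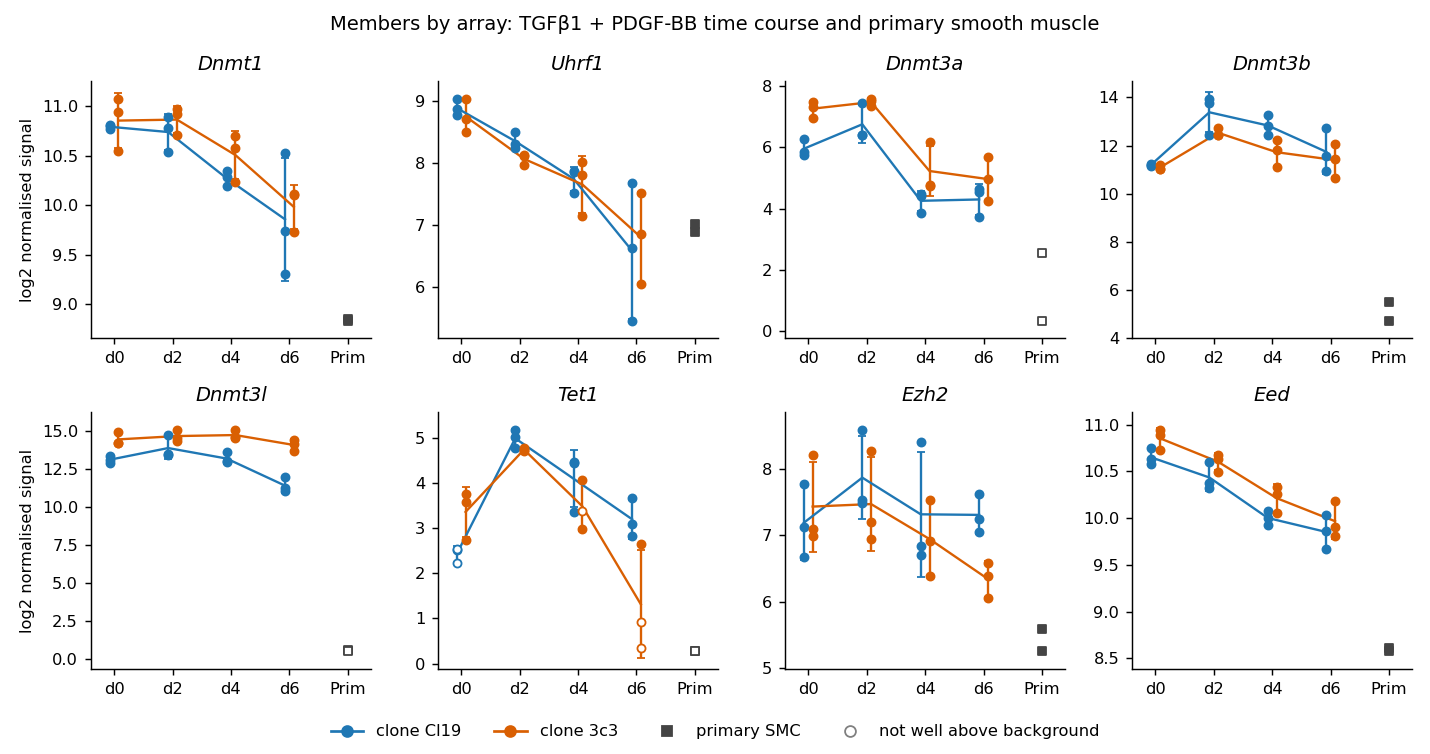
Log2 normalised signal of the 8 measured genes on every array (y axes, scaled for each gene), by day of treatment and in primary SMCs (x axis). Circles are arrays of Cl19 (blue) and 3c3 (orange), squares are Prim, lines and bars are the mean and SD of 3 arrays, and open symbols were not well above background. *Dnmt3b* and *Tet1* are highest at d2 in both clones, while *Dnmt1*, *Uhrf1* and *Eed* are lowest at d6.

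Over the 4 days, 7 of the 8 genes changed in Cl19 and 6 of 8 in 3c3 (F-test of the time course), where 54.3% and 50% of all probes did. *Ezh2* did not pass in either clone (adjusted p = 0.59 and 0.14) and *Dnmt3l* did not in 3c3 (adjusted p = 0.31). The call of *Dnmt3b* in 3c3 (adjusted p = 0.048) was lost without 16 of the 26 arrays, each left out in turn (adjusted p up to 0.15). In bulk RNA, fewer cells of a type and less RNA per cell cannot be told apart. From d0 to d6, 5 of 8 genes fell in each clone and none rose, against 30.3% of all probes lower in Cl19 and 28.6% in 3c3. The median change of the 8 genes was -0.87 in Cl19 and -0.99 in 3c3. From d0 to d2, 2 of 8 rose in each clone and none fell, against 11.2% and 9.8% of all probes higher. The 2 genes were *Dnmt3b* and *Tet1* in both clones. From d2 to d6, a comparison added after the peak at d2 had been seen, 7 genes fell in Cl19 and 5 in 3c3, against 18.1% and 15.5% of all probes lower. Without the array that stood apart 7 fell in Cl19 as well.

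*Dnmt1*, the maintenance methyltransferase, lost almost 1 log2 unit by d6 in both clones. In Cl19 it read 10.80, 10.76 and 10.81 at d0, 10.89, 10.54 and 10.78 at d2, 10.34, 10.19 and 10.28 at d4, and 9.74, 9.30 and 10.52 at d6. In 3c3 it read 11.07, 10.54 and 10.94 at d0, 10.92, 10.70 and 10.97 at d2, 10.70, 10.24 and 10.58 at d4, and 10.11, 9.73 and 10.11 at d6. The d6 arrays lay below all d0 arrays in each clone. *Dnmt1* changed by -0.93 in Cl19 (SE 0.22, adjusted p = 0.0015) and -0.87 in 3c3 (SE 0.22, adjusted p = 0.0031), with no change called at d2. Within slides it was lower at d4 and at d6 than at d0 on 6 of 6 slides. Cl19 d6 replicate 3 was the mildest, 0.28 below the d0 array of its slide, where the other 5 slides were 0.81 to 1.46 below. The second *Dnmt1* probe fell too, with changes of -0.86 in Cl19 and -0.87 in 3c3.

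*Uhrf1*, the partner that brings *Dnmt1* to replicated DNA, had a lower group mean on each later day, with every d2 array already below every d0 array of its clone. In Cl19 the arrays read 8.87, 8.78 and 9.03 at d0 and 8.31, 8.24 and 8.51 at d2. It went on to 7.86, 7.87 and 7.52 at d4 and 6.62, 5.46 and 7.68 at d6. In 3c3 the arrays read 9.04, 8.51 and 8.72 at d0, 8.11, 7.97 and 8.13 at d2, 8.02, 7.14 and 7.81 at d4, and 7.51, 6.04 and 6.86 at d6. The drop to d2 did not pass the test in Cl19 (-0.54, adjusted p = 0.38) or 3c3 (-0.69, adjusted p = 0.26), though it was present on 6 of 6 slides. Without the array that stood apart it was -0.51 in Cl19 (adjusted p = 0.48). By d6 *Uhrf1* fell by 2.31 in Cl19 (SE 0.39, adjusted p = 5.9e-05) and fell by 1.96 in 3c3 (SE 0.39, adjusted p = 0.00041). Replicate 2 was lowest at d6 in both clones, and replicate 3 of Cl19 was again the highest. From d2 to d6 it fell in 3c3 as well (-1.27, adjusted p = 0.021), a call lost without 3c3 d2 replicate 1, d2 replicate 3 or d6 replicate 2 (adjusted p from 0.057 to 0.13). The probe is placed on unassigned sequence in rn4.

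The *de novo* enzymes parted ways by d4. At d2 *Dnmt3a* was above d0 on 6 of 6 slides, by 0.0023 to 1.19, with no call in either clone. In Cl19 the gain was 0.80, or 0.44 without the array that stood apart (adjusted p = 0.63). It passed in the deposited table, without normalisation (1.05, adjusted p = 0.042). At d4 *Dnmt3a* read lower in both clones, and the step from d2 to d4 was not tested. In Cl19 its levels were 6.27, 5.75 and 5.83 at d0, 7.46, 6.38 and 6.40 at d2, 4.46, 4.42 and 3.87 at d4, and 4.63, 3.73 and 4.54 at d6. In 3c3 they were 6.96, 7.32 and 7.48 at d0, 7.58, 7.33 and 7.50 at d2, 6.15, 4.74 and 4.78 at d4, and 5.69, 4.23 and 4.96 at d6. No d4 or d6 array reached the d0 range of its clone. From d0 to d6 *Dnmt3a* changed by -1.65 in Cl19 (SE 0.49, adjusted p = 0.0073) and -2.30 in 3c3 (SE 0.49, adjusted p = 0.00064). From d2 the changes were -2.45 and -2.51, or -2.10 in Cl19 without the array that stood apart (adjusted p = 0.0059). Within the slides of 3c3 the difference of d6 from d0 was -1.27 in replicate 1, -3.09 in replicate 2 and -2.52 in replicate 3.

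*Dnmt3b* rose sharply at d2 and came back. In Cl19 it read 11.24, 11.14 and 11.21 at d0, 12.42, 13.78 and 13.95 at d2, 12.81, 13.25 and 12.44 at d4, and 11.55, 10.92 and 12.74 at d6. In 3c3 it read 11.02, 11.01 and 11.20 at d0, 12.74, 12.42 and 12.43 at d2, 12.23, 11.12 and 11.82 at d4, and 12.08, 10.65 and 11.46 at d6. The d2 arrays lay above all d0 arrays in both clones, and at d6 the groups overlapped again. The rise to d2 was 4.56-fold in Cl19 (2.19, SE 0.44, adjusted p = 0.0012) and 2.73-fold in 3c3 (1.45, SE 0.44, adjusted p = 0.026). Without the array that stood apart, the rise in Cl19 was 2.67 (adjusted p = 0.00016). In 3c3 the call was lost when any 1 of the 6 arrays of d0 and d2 was left out (values of 1.34 to 1.51, adjusted p from 0.053 to 0.091), while the gain was present on each slide. Without the 4 arrays of the slide with the brighter negative controls it was 1.56 (adjusted p = 0.13). The level at d6 did not differ from d0 past the threshold (0.54 in Cl19, adjusted p = 0.32, and 0.31 in 3c3, adjusted p = 0.59). From d2 to d6 *Dnmt3b* fell by 1.65 in Cl19 (adjusted p = 0.0070), or by 2.13 without the array that stood apart, a call lost without Cl19 d6 replicate 2 (adjusted p = 0.057). In 3c3 the difference of -1.14 did not pass (adjusted p = 0.064), and with the slide as a block it did (adjusted p = 0.040). Ordered by group mean, Cl19 at d2 (13.38, SD 0.84), Cl19 at d4 (12.84, SD 0.41) and 3c3 at d2 (12.53, SD 0.19) were highest, and neighbours in that order differed by less than the larger of their SDs.

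*Dnmt3l*, the stimulating partner, was higher in 3c3 than in Cl19 in the group means of every day. In Cl19 the arrays read 13.09, 13.36 and 12.92 at d0, 14.73, 13.52 and 13.43 at d2, 13.61, 13.03 and 12.97 at d4, and 11.26, 11.03 and 11.96 at d6. In 3c3 the arrays read 14.22, 14.92 and 14.25 at d0, 14.38, 15.09 and 14.58 at d2, 14.54, 15.11 and 14.60 at d4, and 13.68, 14.44 and 14.16 at d6. In Cl19 the d6 arrays lay below all others, while in 3c3 they overlapped with d0. *Dnmt3l* fell by 1.71 in Cl19 (SE 0.33, adjusted p = 0.00021). In 3c3 the change of -0.37 had a 95% interval of -1.06 to 0.32 (adjusted p = 0.38), although it was negative on each slide. The difference between these changes was -1.34 (SE 0.47), which narrowly missed the threshold (adjusted p = 0.054) and passed it with the slide as a block (adjusted p = 0.021). At d2 the mean of Cl19 was 0.77 above d0 (adjusted p = 0.10), or 0.35 without the array that stood apart (adjusted p = 0.48), and with the slide as a block and all arrays it passed (adjusted p = 0.046).

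**Figure D2:**
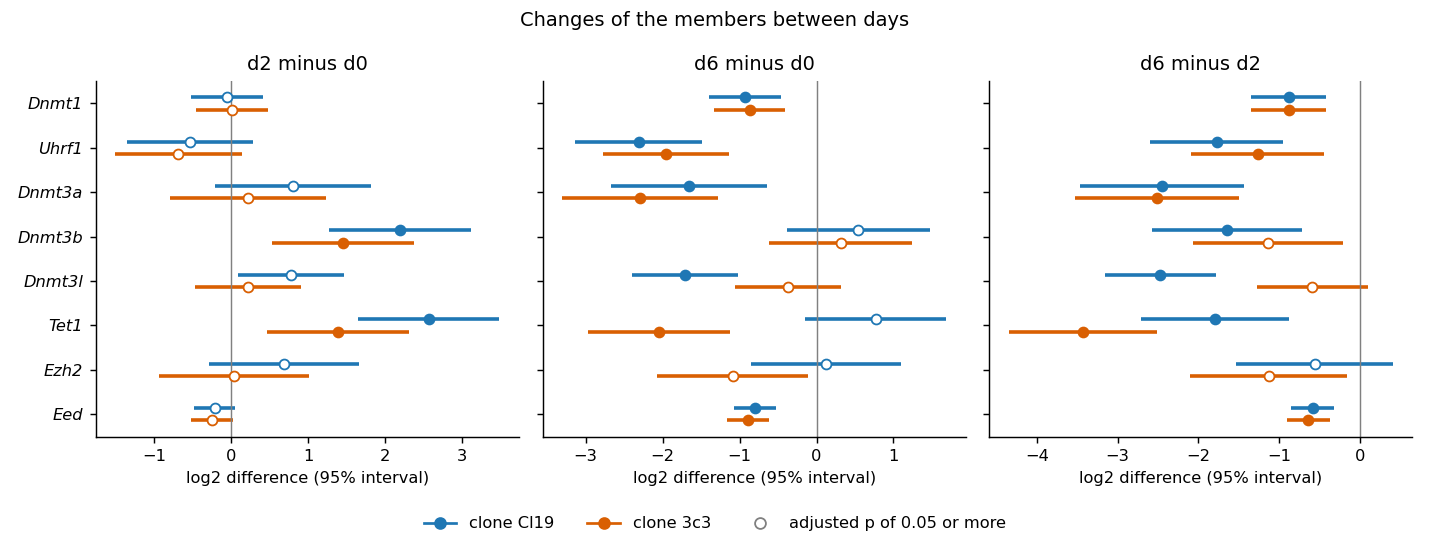
Log2 differences between days for the 8 genes, in 3 panels (d2 minus d0, d6 minus d0 and d6 minus d2), with 95% intervals (lines) in Cl19 (blue) and 3c3 (orange). Filled points have an adjusted p under 0.05. At d2 the filled points are *Dnmt3b* and *Tet1* in both clones. At d6 *Dnmt1*, *Uhrf1*, *Dnmt3a* and *Eed* lie to the left of 0 in both, *Dnmt3l* is filled in Cl19 and *Tet1* in 3c3.

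*Tet1*, which acts against the methyltransferases, rose with *Dnmt3b* at d2, from a signal near the background. In Cl19 it read 2.55, 2.23 and 2.52 at d0, with 1 of 3 arrays well above background. It then read 5.02, 4.78 and 5.19 at d2, 4.46, 4.47 and 3.37 at d4, and 3.10, 2.83 and 3.67 at d6, all well above background. In 3c3 it read 2.74, 3.76 and 3.59 at d0, 4.74, 4.72 and 4.78 at d2, 4.08, 2.99 and 3.39 at d4, and 2.66, 0.93 and 0.35 at d6, where 1 of 3 was well above background, as were 2 of 3 at d4. *Tet1* thus ended above its d0 arrays in Cl19 and below them in 3c3. The rise to d2 was 2.56 in Cl19 (SE 0.44, adjusted p = 0.00025), at least 5.67-fold when the dim d0 arrays were set at the lowest signal well above background. In 3c3 it was 1.38 (SE 0.44, adjusted p = 0.032), a call lost without 5 of the 6 arrays of d0 and d2, each left out in turn (adjusted p from 0.052 to 0.17), and without the slide with the brighter negative controls (1.48, adjusted p = 0.090). Without the array that stood apart, the rise in Cl19 was 2.55. The rise was present on 6 of 6 slides, by 0.95 to 2.67.

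At d6 *Tet1* was the 1 member whose change differed between the clones in the main fit, where 17.4% of all probes did. With the slide as a block *Tet1* passed (adjusted p = 0.0067), and so did *Dnmt3l* (-1.34, adjusted p = 0.021) and *Ezh2* (1.21, adjusted p = 0.013). The values of *Tet1* below are those of the main fit. The change from d0 was 0.77 in Cl19 (SE 0.44, adjusted p = 0.15), and in 3c3 *Tet1* fell by 2.05 (SE 0.44, adjusted p = 0.00073). The difference between them was 2.82 (SE 0.62, adjusted p = 0.0030). On the slides of Cl19 the d6 array was 0.55, 0.60 and 1.15 above d0, and on those of 3c3 the difference was -0.08, -2.83 and -3.24. The size in 3c3 rests on arrays that were not well above background, and as a bound the fall was at least 1.31-fold. With every signal floored at the lowest one well above background, the change in 3c3 was -0.38 (adjusted p = 0.53) and the difference between the clones 1.08 (adjusted p = 0.27).

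*Eed*, the PRC2 subunit that reads the mark, had a lower group mean on each later day in both clones, in small steps. In Cl19 the arrays read 10.58, 10.63 and 10.75 at d0, 10.61, 10.32 and 10.38 at d2, 10.07, 9.93 and 10.00 at d4, and 9.86, 9.67 and 10.03 at d6. In 3c3 the arrays read 10.89, 10.73 and 10.95 at d0, 10.64, 10.50 and 10.67 at d2, 10.34, 10.05 and 10.26 at d4, and 10.18, 9.81 and 9.91 at d6. No array of d4 or d6 reached the d0 range of its clone. *Eed* changed by -0.80 in Cl19 (SE 0.13, adjusted p = 3.1e-05) and -0.89 in 3c3 (SE 0.13, adjusted p = 1.4e-05). The within-slide losses at d6 ran from 0.71 to 1.04 over the 6 slides. The arrays of d4 and d6 overlapped in each (means of 10.00 and 9.85 in Cl19, 10.21 and 9.97 in 3c3).

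*Ezh2*, the enzyme of the complex, did not pass the test of the time course that *Eed* passed in both clones. In Cl19 it read 7.12, 7.77 and 6.66 at d0, 7.52, 8.59 and 7.49 at d2, 6.84, 8.40 and 6.70 at d4, and 7.04, 7.62 and 7.25 at d6. In 3c3 it read 6.98, 8.21 and 7.10 at d0, 7.20, 8.27 and 6.94 at d2, 6.91, 7.52 and 6.39 at d4, and 6.39, 6.58 and 6.05 at d6. Replicate 2 was the highest in 8 of 8 groups, so the spread between arrays was shared by slides of both clones. In Cl19 d6 overlapped with d0 (0.12, adjusted p = 0.86), and in 3c3 all d6 arrays lay below all d0 arrays (-1.09, SE 0.47, adjusted p = 0.060). With the slide as a block, the time course in 3c3 passed (adjusted p = 0.0016), *Ezh2* fell by 1.09 from d0 to d6 (adjusted p = 0.00082), and the difference between the clones of 1.21 passed as well (adjusted p = 0.013). In the same fit *Ezh2* rose by 0.68 at d2 in Cl19 (adjusted p = 0.033), and without both the block and the array that stood apart the difference was 0.85 (adjusted p = 0.28). The second *Ezh2* probe was well above background on all arrays of Cl19 d2 and of no other group, and its d6 difference was -0.76 in Cl19 and -1.07 in 3c3, neither past the threshold (adjusted p = 0.24 and 0.097).

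**Figure D3:**
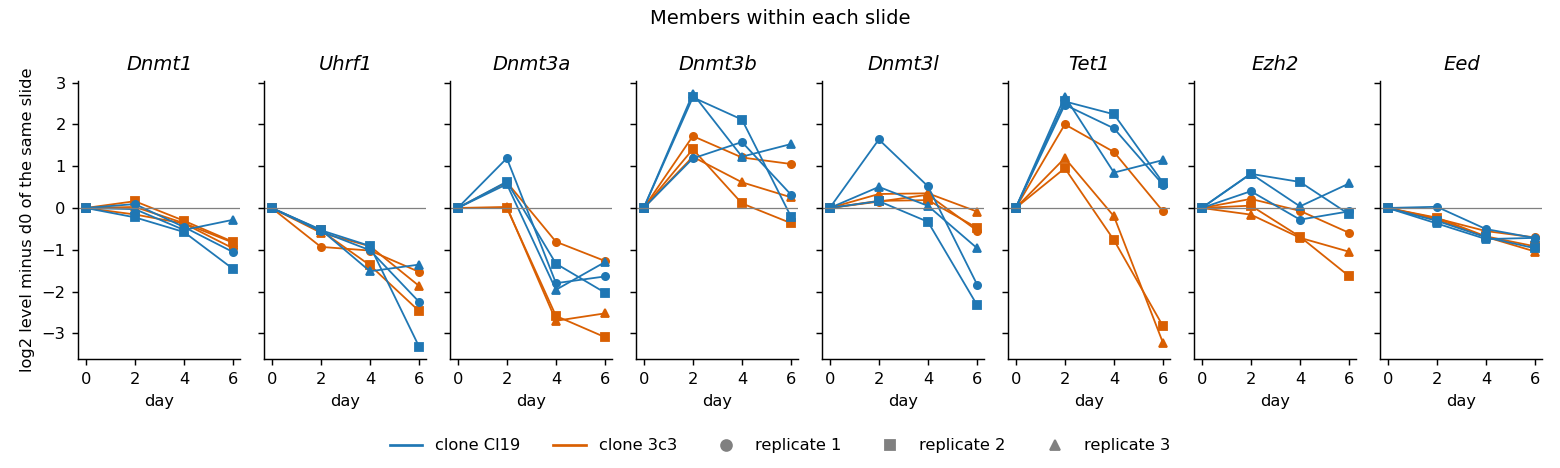
Log2 level minus that of the d0 array on the same slide (y axis), by day (x axis), for each gene. Lines are the 3 slides of Cl19 (blue) and of 3c3 (orange), with a symbol for each replicate. *Eed* moved alike on all 6 slides (0.71 to 1.04 lower at d6), and at d6 *Tet1* was above d0 on the 3 slides of Cl19 and below it on the 3 of 3c3.

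Before treatment the clones differed in 1 of the 8 genes, against 3.07% of all probes. *Dnmt3l* was 2.53-fold lower in Cl19 than in 3c3 at d0 (13.12 ± 0.22 and 14.46 ± 0.39, mean ± SD, n = 3, limma adjusted p = 0.027), with no overlap. The call was lost without 5 of the 6 d0 arrays, each left out in turn (adjusted p from 0.055 to 0.16), and the values ran from -1.46 to -1.11. *Dnmt3a* was also lower in Cl19 on every array (5.95 and 7.26), but its difference of -1.31 did not pass (adjusted p = 0.23). The other 6 genes differed by 0.93 or less, with adjusted p from 0.46 to 1.0. Since each clone was scanned on its own day, clone and scan day cannot be told apart here.

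Compared with primary SMCs, most members were still higher in the treated clones at d6. In Prim 7 of 8 genes were lower than in Cl19 d6 and 5 of 8 lower than in 3c3 d6, against 38.6% and 38.1% of all probes lower. The 7 include *Tet1*, whose difference turned to 0.75 above Cl19 d6 with dim signals floored, so its direction is not settled. The part of the leukocyte and fibroblast signal of Prim in these differences was not tested. *Dnmt3l* was not well above background in Prim (0.61 and 0.49) and was at least 199.9-fold lower than in Cl19 d6 and at least 1281-fold lower than in 3c3 d6. *Dnmt3b* was measured there at 4.71 and 5.49, which is 99.4-fold below Cl19 d6 (adjusted p = 3.9e-10) and 78.3-fold below 3c3 d6 (adjusted p = 8.4e-10). *Dnmt3a* was not well above background in Prim (2.56 and 0.35), which gives bounds of at least 1.44-fold and 2.28-fold lower. Against Cl19 d6 that call was lost with dim signals floored (-0.35, adjusted p = 0.48) and with normexp background correction (-0.25, adjusted p = 0.25). *Dnmt3b* and *Dnmt3l* thus lay further from Prim than *Dnmt1*, *Uhrf1*, *Ezh2* and *Eed* did. The distance of *Dnmt3a* is known only as a low bound and that of *Tet1* is not given, so neither is placed in this order.

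*Dnmt1* (8.85 and 8.84) and *Eed* (8.57 and 8.61) were nearly the same on both Prim arrays and below every array of the clones. *Dnmt1* was 2.02-fold lower in Prim than in Cl19 d6 and 2.20-fold lower than in 3c3 d6, and *Eed* 2.40-fold and 2.60-fold lower, all past the threshold. The call of *Dnmt1* against Cl19 d6 was lost in a fit of those 2 groups alone (adjusted p = 0.066). The second *Dnmt1* probe was lower in Prim too (-0.63 and -0.85), with overlap of its arrays in Cl19 d6. *Ezh2* (5.25 and 5.58) was 3.71-fold lower than in Cl19 d6 (adjusted p = 0.0031). Against 3c3 d6 its difference of -0.93 did not pass (adjusted p = 0.12), nor with the slide as a random block (adjusted p = 0.087), and it passed in a fit of those 2 groups alone (adjusted p = 0.023). With the replicate number as a block it was -1.13 and passed (adjusted p = 0.00057), but nothing ties a number of Prim to the same number in a clone. *Uhrf1* was the exception: Prim (7.02 and 6.88) lay within the range of both clones at d6, with differences of 0.37 and 0.15 (adjusted p = 0.47 and 0.77) that turned to -2.05 and -2.14 in the deposited table without normalisation, where the median of all probes was -2.17 and -2.09. Against Cl19 this value rests on single arrays, being 0.91 without Cl19 d6 replicate 3 (adjusted p = 0.042) and -0.20 without replicate 2. *Tet1* was not well above background in Prim (0.27 and 0.28), and no fold is given because the clones at d6 were themselves near that limit.

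The lists of other genes of the same machinery were chosen with results of these data known. From these lists and that of proliferation, the genes named with values are those with the largest d6 changes in either clone. Over all probes, 22% rose and 30.3% fell by d6 in Cl19, and 19.7% rose and 28.6% fell in 3c3. Of 11 further genes of DNA methylation that could be tested, 2 rose and 3 fell by d6 in Cl19, and 3 rose and 3 fell in 3c3, shares near those of all probes. *Gadd45b*, a stress gene linked to demethylation, rose by 1.70 in Cl19 and 1.84 in 3c3 (SE 0.19 in each, adjusted p = 2.8e-07 and 1.8e-07). *Gadd45a* rose in 3c3 (1.39, adjusted p = 0.0040) and was 0.68 higher in Cl19 (adjusted p = 0.13). *Gadd45g* fell by 0.68 in Cl19 and was 0.40 higher in 3c3 (adjusted p = 0.029 and 0.20). *Uhrf2*, the relative of *Uhrf1*, rose by 0.93 in Cl19 (adjusted p = 0.029), opposite in sign to *Uhrf1*, and changed by -0.03 in 3c3 (adjusted p = 0.95).

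Of 6 further PRC2 genes, 1 rose in Cl19 and 2 rose and 2 fell in 3c3, too few to set against the shares of all probes. *Ezh1*, the alternative enzyme of PRC2, rose by 0.79 in Cl19 (SE 0.15, adjusted p = 0.00018) and 0.78 in 3c3 (SE 0.15, adjusted p = 0.00029). *Rbbp7*, a histone-binding subunit, rose by 1.16 in 3c3 (adjusted p = 1.9e-05) and changed in Cl19 by less than its SE of 0.17 (adjusted p = 0.99). The accessory subunits *Aebp2* and *Mtf2* fell in 3c3 (-0.51 and -0.43) and were 0.29 and 0.27 higher in Cl19, not past the threshold. The calls of *Aebp2* and *Mtf2* in 3c3 were lost without 3 and 4 of the 26 arrays, each left out in turn, and those of *Gadd45g* and *Uhrf2* in Cl19 without 4 each.

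Some forms of Polycomb repressive complex 1 (PRC1) read the mark that PRC2 leaves. Of 17 genes tested, 4 rose and 3 fell in Cl19, and 1 rose and 9 fell in 3c3, against the 22% and 30.3%, and 19.7% and 28.6%, of all probes. The 1 that rose in 3c3 was *Cbx7*, a reader of the mark, which rose in Cl19 too, by 5.07 (SE 0.41, adjusted p = 6.4e-09) against 3.01 in 3c3 (SE 0.41, adjusted p = 7.4e-06). In Prim the *Cbx7* probe was not well above background (mean 3.70). *Bmi1* and *Pcgf6*, which encode alternative subunits of the same position, fell in both clones, with changes of -1.20 and -1.61 in Cl19 and -1.04 and -1.59 in 3c3. *Phc2* rose by 1.48 in Cl19 and changed by 0.08 in 3c3. Of the 2 enzymes that remove the PRC2 mark, *Kdm6b* rose by 2.51 in Cl19 and 1.09 in 3c3, and *Kdm6a* did not pass in either clone (-0.06 and 0.42).

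**Figure D4:**
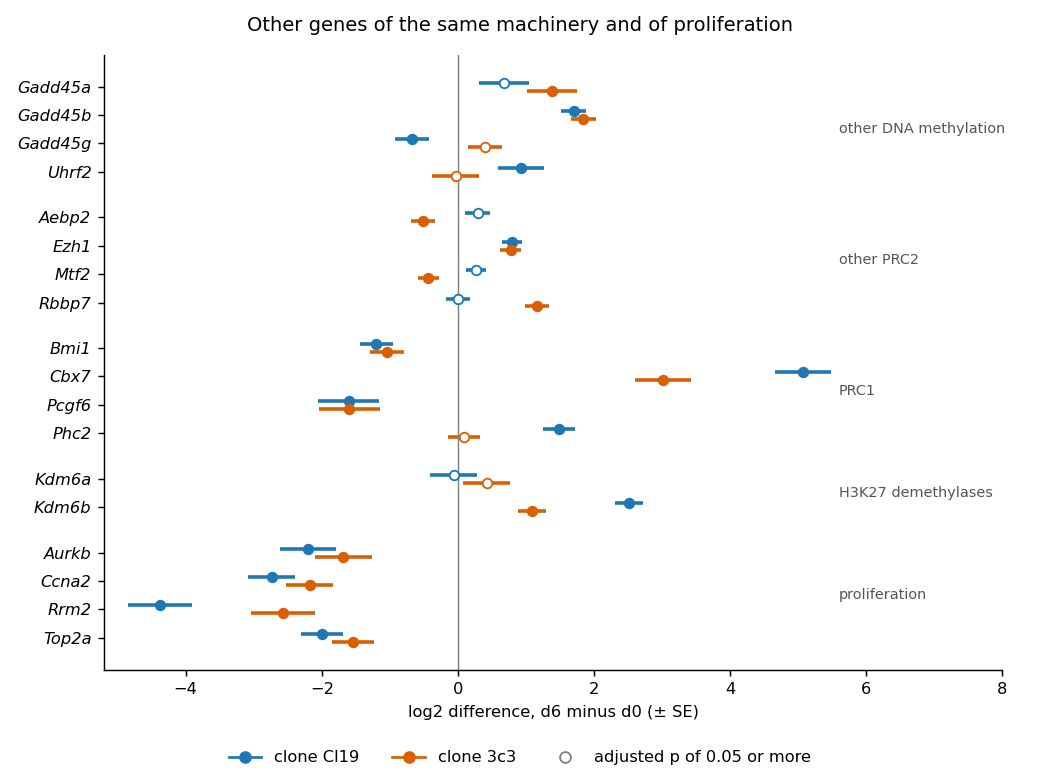
Log2 difference between d6 and d0 (x axis, ± SE) for the related genes named in the text, in Cl19 (blue) and 3c3 (orange). The genes were picked for the largest d6 changes of their lists. Filled points have an adjusted p under 0.05. *Cbx7*, *Kdm6b*, *Gadd45b* and *Ezh1* lie to the right of 0 in both clones, and the proliferation genes to the left.

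Genes of proliferation moved with part of the members. Of 15 such genes tested, 13 fell in each clone by d6 and none rose. Of all probes, 30.3% fell and 22% rose in Cl19, and 28.6% fell and 19.7% rose in 3c3. The median change of the list was -1.68 in Cl19 and -1.56 in 3c3. *Rrm2*, which makes DNA building blocks, changed by -4.38 in Cl19 and -2.58 in 3c3. *Ccna2* (-2.74 and -2.18), *Aurkb* (-2.21 and -1.68) and *Top2a* (-2.0 and -1.54), all of the dividing cell, fell in both. The summed signal of the list (log2) lay between 16.45 and 16.59 on the d0 arrays of both clones and fell at d6 to 14.60, 14.16 and 15.67 in Cl19 and 15.42, 14.69 and 15.29 in 3c3. Cl19 d6 replicate 3, which read highest of its group in *Dnmt1*, *Uhrf1*, *Dnmt3b*, *Dnmt3l*, *Tet1* and *Eed*, was also the highest of its group here. On its slide every member but *Dnmt3l* read higher at d6 than at d4. The proliferation sum there was 15.67 at d6 and 15.47 at d4, and the smooth muscle sum was 15.90 and 16.21. The cause of this order was not tested. At d6 replicate 2 was lowest in both clones, as for *Dnmt1*, *Uhrf1*, *Dnmt3a*, *Dnmt3b* and *Eed*. *Dnmt3l* and *Tet1* were lowest in replicate 2 of Cl19 alone, and *Ezh2* was highest in replicate 2 of both clones. In Prim the sum was 14.78 and 14.77. The part of fewer dividing cells in the fall of the members was not tested.

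**Figure D5:**
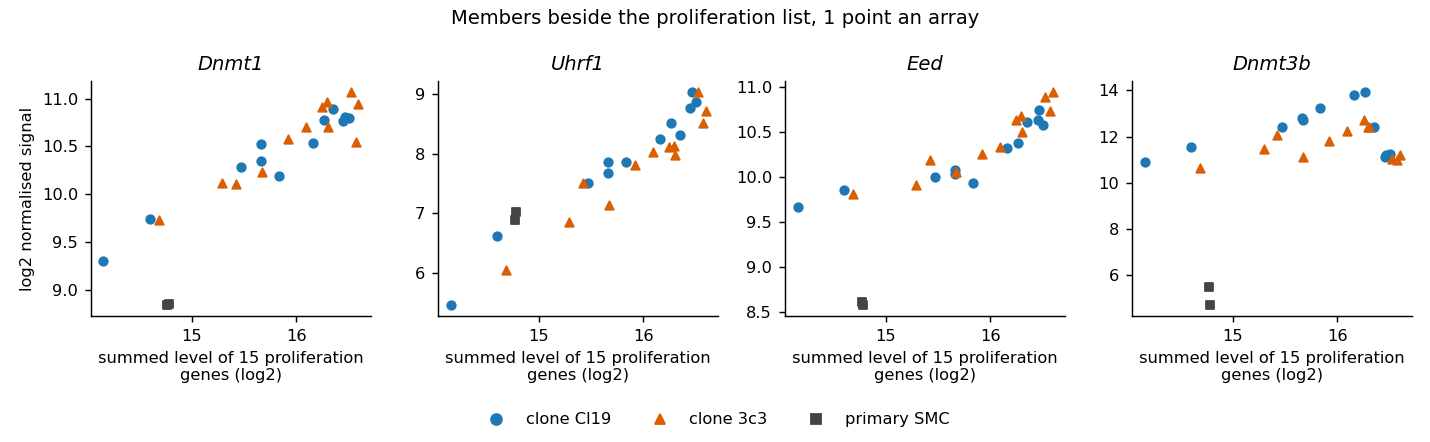
Log2 level of 4 members (y axes) against the log2 summed signal of 15 proliferation genes (x axis), with 1 point for each of 26 arrays: Cl19 (blue circles), 3c3 (orange triangles) and Prim (dark squares). In the clones *Dnmt1*, *Uhrf1* and *Eed* are low on the arrays with a low sum, while *Dnmt3b* is highest at intermediate sums. Prim, at a sum of about 14.8, lies below the clones in *Dnmt1*, *Eed* and *Dnmt3b* and among them in *Uhrf1*.

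The genes whose group means were most like those of each member were sought among 9391 named candidates, with Pearson's r over 9 group means as a description. *Dnmt1* was closest to *Mad2l1* and *Zfp472* (r = 0.996 and 0.994) and *Uhrf1* to *Recql4* and *Cdca2* (r = 0.984 and 0.982). *Eed* was closest to *Pspc1* and *Trip13* (r = 0.998 and 0.996). *Dnmt3a* was closest to *Uck1* and *Nap1l4* (r = 0.993 and 0.984), *Dnmt3b* to *Ggta1* and *Fyco1* (r = 0.991 and 0.989), and *Dnmt3l* to *Morc3* and *Mllt10* (r = 0.996 and 0.995). For *Tet1* the closest were *Ppfia1* and *Mis12* (r = 0.972 and 0.948), and for *Ezh2* *Prpf38b* and *Tchp* (r = 0.976 and 0.975). Among the members themselves *Dnmt1* and *Eed* were the closest pair (r = 0.981) and *Dnmt3b* and *Uhrf1* the least alike (r = 0.344). These means share the same arrays, and Prim, far from the clones in most members, weighs on each r.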

How the data were processed

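RNA of 2 rMAPC clones at 4 days of SMC differentiation and of primary SMCs was hybridised to 26 single-colour Agilent arrays. Per the labels, the authors scanned the arrays and extracted them with Agilent Feature Extraction 10.1.1.1, and the deposited scanner files hold the processed signal, a background-subtracted intensity on a linear scale. The deposited series table holds the log2 of that intensity without normalisation between arrays, and it was used as an alternative. The probe positions in the scanner files are on rn4. The study's methods normalised by quantiles, and this was followed here.

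Control spots and features marked as outliers were left out, spots of 1 probe were averaged, and the log2 intensity was quantile-normalised with limma 3.58.1 in R 4.3.3. Of 41012 gene probes, 24442 were tested, those with all arrays of some group (of 9) well above background. One fit of the 9 groups over all arrays gave each contrast, with Benjamini-Hochberg adjustment over all tested probes, and intervals are at 95%. Arrays carry no read depth, and the number of arrays limits the precision. A dim group was bounded by the lowest signal well above background. The script was tested on simulated data with known changes.

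The members and gene lists were chosen with earlier results of these data known, and the contrast of d6 with d2 was added after the values at d2 had been seen. Named genes were the members, the 2 genes closest to each member and part of the related lists. From each related list, genes well above background on every d0 and d6 array were ordered by the larger absolute d6 change of the clones. Those with the largest were named, so they show the largest changes of their lists among such genes. Replicate numbers mark slides, each with the 4 days of 1 clone. Deviations from the group means correlated above 0.1 in 16 of 18 same-slide pairs of Cl19 and in 18 of 18 of 3c3. Between the clones, on different slides, they did so in 39 of 48 pairs with the same replicate number and 20 of 96 with unlike numbers. The spread tied to replicate number was thus partly shared by the clones, and the main fit leaves it out. The fit with the slide as a block is given beside the fit without it where it changed a call. Alternatives were 75th percentile scaling, normexp with an offset of 50, the deposited table, a floor, no filter, the mean of a gene's probes, fits of single comparisons, slide blocks, the methods' Student test and area method, and each array left out in turn.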

Additional observations from a re-analysis of the deposited data

Results flagged for a closer look

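In the main fit the change from d0 to d6 differed between the clones for 1 of 8 members, where 17.4% of all probes did. The call is by limma's test of the difference itself. With the slide as a block the change differed for *Dnmt3l* and *Ezh2* as well. In the main fit it also differed for 7 of the related genes named here. Those genes were picked for a large d6 change in either clone, so their count cannot be set against that share. Values are the change in Cl19 minus that in 3c3, on the log2 scale. *Tet1* differed by 2.82 (adjusted p = 0.0030), being above d0 on 3 of 3 slides of Cl19 and below it on 3 of 3 of 3c3. The arrays behind it were near background, with 1 of 3 well above it in each of Cl19 d0 and 3c3 d6, and the call was lost with dim signals floored (1.08, adjusted p = 0.27) and with normexp (0.26, adjusted p = 0.067). *Cbx7* differed by 2.06 (adjusted p = 0.018), *Kdm6b* by 1.42 (adjusted p = 0.0016), *Phc2* by 1.40 (adjusted p = 0.0057), *Aebp2* by 0.81 (adjusted p = 0.036) and *Mtf2* by 0.70 (adjusted p = 0.030), all higher in Cl19. *Rbbp7* differed by -1.16 (adjusted p = 0.0020) and *Gadd45g* by -1.08 (adjusted p = 0.041), both lower in Cl19. When single arrays were left out, the adjusted p of *Cbx7* reached 0.058, of *Aebp2* 0.11, of *Mtf2* 0.099 and of *Gadd45g* 0.12. The call of *Kdm6b* was lost with the mean over its probes (0.87, adjusted p = 0.075). That of *Cbx7* was lost in the deposited table (adjusted p = 0.055). Without the slide with brighter negative controls, *Cbx7*, *Aebp2*, *Mtf2* and *Gadd45g* lost theirs (adjusted p = 0.12, 0.10, 0.19 and 0.13). *Aebp2*, *Mtf2* and *Gadd45g* lost it in other settings too. Clone and scan day cannot be told apart in these differences, and no group held more than 3 arrays, so no single array was tested as an outlier.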

How the results depend on the processing

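Of 952 values of members under settings other than leaving out 1 array, 885 kept their direction and their side of the threshold, 28 lost a call, 30 gained one and 9 changed sign; with 1 array left out the counts were 2423 of 2496, 36, 14 and 23. For related genes they were 506 of 558, 37, 2 and 13, and 1333 of 1404, 41, 5 and 25. The cause was not tested for any change below.

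The number of members called at d0 between the clones was 2 with normexp, 2 in a fit of those groups alone and 0 without the slide with brighter negative controls, and 0 to 1 with 1 array left out. For d2 in 3c3 it was 1 without a filter on dim probes, 0 without that slide, 4 with the methods' t-test unadjusted, 1 after Benjamini-Hochberg and 0 to 2 with 1 array left out. For d2 in Cl19 it was 4 with the slide block and 1 with the methods' t-test adjusted. For d6 in Cl19 that test gave 3, with *Dnmt1* and *Uhrf1* lost (adjusted p = 0.10 and 0.0503). From d2 to d6 it was 3 in Cl19 in a fit of those groups alone and 3 in 3c3 without the slide. For the difference between the clones it was 0 with a floor, 3 with the slide block and 1 to 2 with 1 array left out. For Prim against 3c3 d6 it was 8 in the deposited table. The area method called 2 members in Cl19 (*Dnmt3b* and *Tet1*) and 0 in 3c3.

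Signs changed as follows. With 75th percentile scaling, Prim minus 3c3 d6 was 0.41 for *Tet1*. The d2 change in 3c3 was -0.091 for *Dnmt1* and -0.035 for *Dnmt3l*. The d6 change in 3c3 was -0.17 for *Phc2*, -0.043 for *Gadd45g* and 0.045 for *Uhrf2*, and the clone difference was 0.051 for *Pcgf6*. With normexp, the d6 change of *Rbbp7* in Cl19 was 0.00068 and the clone differences of *Ezh1* and *Bmi1* were -0.0025 and 0.048. In the deposited table, Prim minus 3c3 d6 and minus Cl19 d6 were -2.14 and -2.05 for *Uhrf1*. There the d2 change of *Dnmt1* in Cl19 was 0.029, the d6 changes of *Uhrf2* in 3c3 and *Kdm6a* in Cl19 were 0.36 and 0.28, and the clone difference of *Pcgf6* was 0.065. With a floor, *Tet1* in Prim was 0.97 above 3c3 d6 and 0.75 above Cl19 d6. With the mean over probes, the d6 changes in Cl19 were -0.32 for *Ezh2*, 0.053 for *Kdm6a* and -0.032 for *Mtf2*. Without the slide with brighter negative controls, the d6 change of *Uhrf2* in 3c3 was 0.41.

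With each array left out in turn, values that crossed 0 ranged as follows. At d0 between the clones *Dnmt1* ran from -0.22 to 0.048 and *Ezh2* from -0.54 to 0.15. For *Uhrf1*, Prim minus 3c3 d6 ran from -0.23 to 0.50 and minus Cl19 d6 from -0.20 to 0.91. At d2, *Dnmt1* ran from -0.145 to 0.12 in 3c3 and from -0.13 to 0.045 in Cl19, and *Ezh2* from -0.36 to 0.43 in 3c3. At d6 in 3c3, *Dnmt3b* ran from -0.026 to 0.69, *Phc2* from -0.065 to 0.23 and *Uhrf2* from -0.27 to 0.19. At d6 in Cl19, *Ezh2* ran from -0.14 to 0.41, *Kdm6a* from -0.28 to 0.085 and *Rbbp7* from -0.20 to 0.14. The clone difference ran from -0.40 to 0.21 for *Dnmt1*, -0.27 to 0.64 for *Dnmt3b*, -0.00022 to 0.20 for *Eed*, -0.90 to 0.21 for *Uhrf1*, -1.19 to 0.023 for *Aurkb*, -0.40 to 0.050 for *Bmi1*, -0.12 to 0.13 for *Ezh1*, -0.27 to 0.013 for *Gadd45b* and -0.42 to 0.23 for *Pcgf6*.

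With the slide as a replicate block, 64 of 72 values of members kept their call. The exceptions were *Ezh2* (d2 in Cl19, d6 and the time course in 3c3, d6 minus d2 in 3c3 at -1.13 with adjusted p = 0.0015, and the clone difference), *Dnmt3l* (d2 in Cl19, and the clone difference at -1.34 with adjusted p = 0.021) and *Dnmt3b* (d6 minus d2 in 3c3), all of which gained one. With the replicate number as a block 23 of 24 kept it, and with the slide as a random block 24 of 24. The deposited table, without normalisation, moved the median of all probes at d6 from -0.20 to 0.10 in Cl19 and from -0.21 to 0.09 in 3c3, with 6771 probes higher and 5396 lower in Cl19 (5371 and 7394 after quantile normalisation) and 6167 and 4758 in 3c3 (4803 and 6989). For Prim it left 1640 higher and 18111 lower than Cl19 d6 (8010 and 9431 after normalisation) and 1854 and 17656 against 3c3 d6 (8168 and 9308). At d2 it gave 3696 and 1997 in Cl19 (2731 and 2803) and 4026 and 1128 in 3c3 (2396 and 2266). Signals near background, as for *Tet1* and for *Dnmt3a* in Prim, limit the size of those differences.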
